A study of Mus musculus with 2 samples.

Results

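The 10 genes described here encode the carriers that bring glucose into muscle and move lactate across its membrane, with a chaperone of the lactate carriers and a gatekeeper of glucose carrier traffic. They were taken by name from the annotation: 5 facilitative glucose transporters of the SLC2 family (Slc2a1, Slc2a3, Slc2a4, Slc2a8 and Slc2a12), 3 monocarboxylate transporters of the SLC16 family (Slc16a1, Slc16a3 and Slc16a7), the accessory protein basigin (Bsg) and the Rab GTPase-activating protein Tbc1d4. All 10 were found among the 55536 annotated genes, and the choice by name uses no measured value, although earlier results of these data were known. Their RNA was measured by total RNA-seq in gastrocnemius, a calf muscle, from 2 males of the B6Cast F1 hybrid (strain B6CASTF1/J, a first-generation cross of C57BL/6J and CAST/EiJ) aged 25 days, with 1 library per animal made from 300 ng of RNA. The labels give no treatment, no other genotype and 1 group, so the data describe levels and the spread between these animals, and no condition was compared. The tissue samples are numbered as different males, although both carry the same donor entry, and they are called animal 1 and animal 2.

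Glucose enters muscle fibres by facilitated diffusion. GLUT4, the product of Slc2a4, is held in vesicles inside the fibre and moves to the surface membrane and T-tubules after insulin or contraction, while GLUT1 sits at the surface of many cell types. TBC1D4, also called AS160, keeps Rab GTPases on GLUT4 vesicles inactive until it is phosphorylated by AKT. Lactate crosses membranes with a proton through monocarboxylate transporters. MCT4 (Slc16a3) is known for export from glycolytic fibres, MCT1 (Slc16a1) is known from oxidative fibres, and basigin brings both to the membrane.

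The libraries held 35098487 expected counts in animal 1 and 37428588 in animal 2, of which spike-ins took 0.543% and 0.573%. A count of 0 allowed up to 3 counts, or 0.0855 CPM (counts scaled to the library total) in animal 1 and 0.0802 CPM in animal 2. Markers of fast fibres, the main fibre kind of this muscle, were detected for 10 of 10 genes, with summed levels of 83718 TPM in animal 1 and 79044 TPM in animal 2. TPM is the share of transcripts, corrected for transcript length and scaled to a fixed total, and it is the level used throughout. The interval the deposited table gives around its posterior mean TPM is called the posterior interval below, and its level is not stated there. In whole muscle, fewer cells of a type and less RNA per cell cannot be told apart.

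At 1 TPM or more in both animals, 8 of the 10 genes were detected, against 19.4% of annotated genes and 45.3% of nuclear protein-coding genes. Slc2a3 and Slc16a7 did not reach that level in both animals. The levels fell into 3 tiers: Bsg, Slc16a3 and Slc2a4 stood above 100 TPM, Slc16a1 and Tbc1d4 near 10 TPM, and the other 5 below 5 TPM. These bounds belong to TPM over all entries: rescaled to nuclear protein-coding genes, Slc2a4 had a mean of 278 TPM, Slc16a1 23.9, Slc2a8 8.94 and Slc2a3 1.21, and all 10 genes reached 1 TPM in both animals. Between Slc2a4 and Slc16a1, the next gene down, the means differed 11.6-fold. Neighbours in this order whose ranges over the animals overlapped, and whose order is thus not resolved, were Slc16a3 and Slc2a4, Slc16a1 and Tbc1d4, and Slc2a8 and Slc2a12. By the deposited TPM Slc16a3 was above Slc2a4 within each animal. In the second quantification Slc2a4 was the higher in animal 2, at 162.77 TPM against 158.83 TPM for Slc16a3. The posterior intervals of Slc16a3 and Slc2a4 overlapped in 1 animal. Posterior intervals also overlapped for Slc16a7 and Slc2a3 in both animals, and for Slc2a12 and Slc2a1 in 1 animal. Among 21938 nuclear protein-coding genes ranked by mean TPM, Bsg was at rank 211, Slc16a3 at rank 372 and Slc2a4 at rank 402, while Slc16a1 was at rank 3893 and Tbc1d4 at rank 4142.

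**Figure D1:**
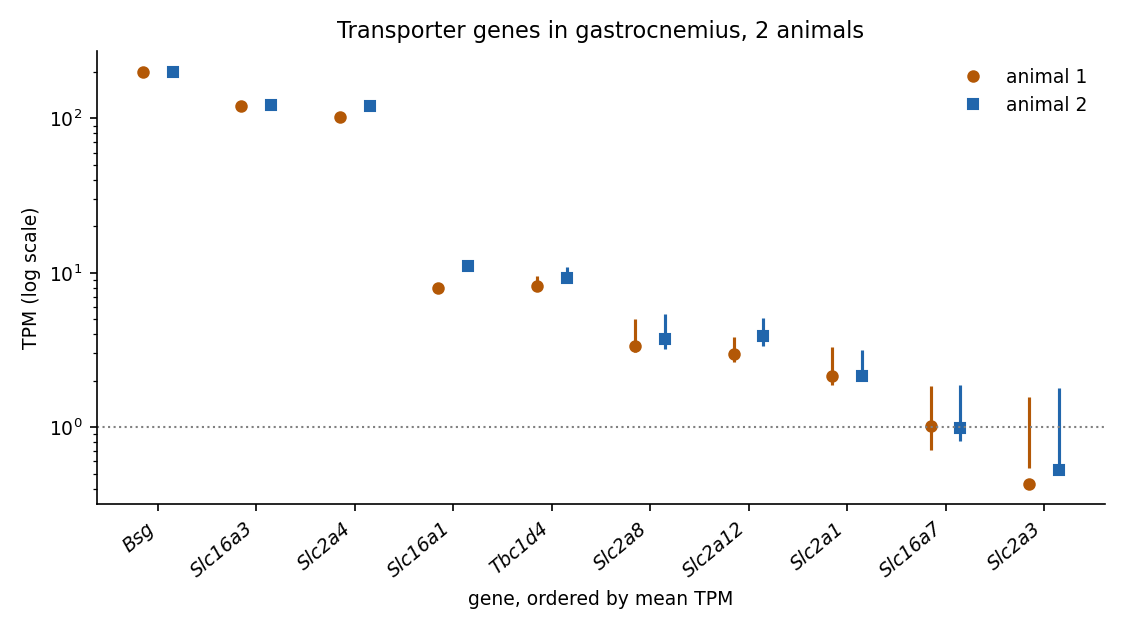
Level of each of the 10 genes as TPM on a log scale, with a circle for animal 1 and a square for animal 2 and vertical lines for the posterior interval; the dotted line is 1 TPM. Bsg, Slc16a3 and Slc2a4 lie above 100 TPM in both animals, and the Slc2a3 points, at 0.43 TPM in animal 1 and 0.53 TPM in animal 2, lie below their own intervals.

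Slc2a4 (chr11:69942539-69948188, minus strand), the insulin-responsive carrier, had 101.71 TPM in animal 1 and 119.53 TPM in animal 2, with a mean of 111 ± 12.6 TPM (SD, n = 2). It held 90.8% of the summed TPM of 12 SLC2 genes in animal 1 and 91.3% in animal 2. The other 4 glucose transporters were each at 4 TPM or less in both animals.

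Slc2a8 (chr2:32972990-32982083, minus strand), which encodes the intracellular carrier GLUT8, had 3.37 TPM in animal 1 and 3.74 TPM in animal 2. Slc2a12 (chr10:22645011-22704285, plus strand), which encodes GLUT12, had 2.96 TPM in animal 1 and 3.89 TPM in animal 2. Slc2a8 thus sat within the Slc2a12 range in both animals. Slc2a12 shares 407 bases with Tbpl1 on the opposite strand, which stood at 6.95 TPM in animal 1 and 8.94 TPM in animal 2, and whether counting used strand is not given in the sources used here.

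Slc2a1 (chr4:119108711-119137983, plus strand), which encodes GLUT1, had 2.16 TPM in animal 1 and 2.14 TPM in animal 2. Slc2a4 was therefore 47.1-fold above Slc2a1 in animal 1 and 55.9-fold above it in animal 2, a log2 ratio of levels of 5.68 ± 0.174 (SD, n = 2). The second quantification put this ratio at 36.2-fold in animal 1 and 43.7-fold in animal 2. Endothelial cells are known to carry GLUT1, and so are human red cells. Whether mouse red cells carry it was not tested here. In these libraries 8 of 8 endothelial markers were detected, at summed levels of 65.7 TPM in animal 1 and 75.2 TPM in animal 2. Of 7 erythroid markers matched, 5 were detected, at summed levels of 587 TPM in animal 1 and 539 TPM in animal 2. The part of either cell type in the Slc2a1 level was not tested.

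Slc2a3 (chr6:122727809-122801640, minus strand), the gene of the neuronal carrier GLUT3, had 36 counts in animal 1 and 38 counts in animal 2. Its deposited TPM was 0.43 in animal 1 and 0.53 in animal 2, but its posterior mean TPM was 1.02 in animal 1 and 1.14 in animal 2. The deposited TPM lay below the lower bound of its posterior interval in both animals, 0.542 in animal 1 and 0.573 in animal 2. Posterior means can lie above the deposited TPM at low counts: Slc16a5, with 0 counts in both animals, had 0.63 in animal 1 and 0.60 in animal 2. The second quantification gave Slc2a3 0.63 TPM in animal 1 and 0.68 TPM in animal 2. Slc2a3 was thus below 1 TPM by the deposited TPM and the second quantification, and its posterior mean alone does not place it above.

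Of the 7 SLC2 genes outside the 10, none was detected at 1 TPM, against 45.3% of nuclear protein-coding genes. Slc2a10 was the highest, at 0.64 TPM in animal 1 and 0.50 TPM in animal 2. Slc2a13, the proton myo-inositol cotransporter, had 0.53 TPM in animal 1 and 0.46 TPM in animal 2, and the urate carrier Slc2a9 had 0.14 TPM in animal 1 and 0.04 TPM in animal 2. Slc2a2, the carrier of liver and pancreatic beta cells, and Slc2a7 had 0 counts in both animals. The sodium-glucose cotransporter genes Slc5a1, Slc5a2, Slc5a4a and Slc5a4b were at 0 TPM in both animals.

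**Figure D2:**
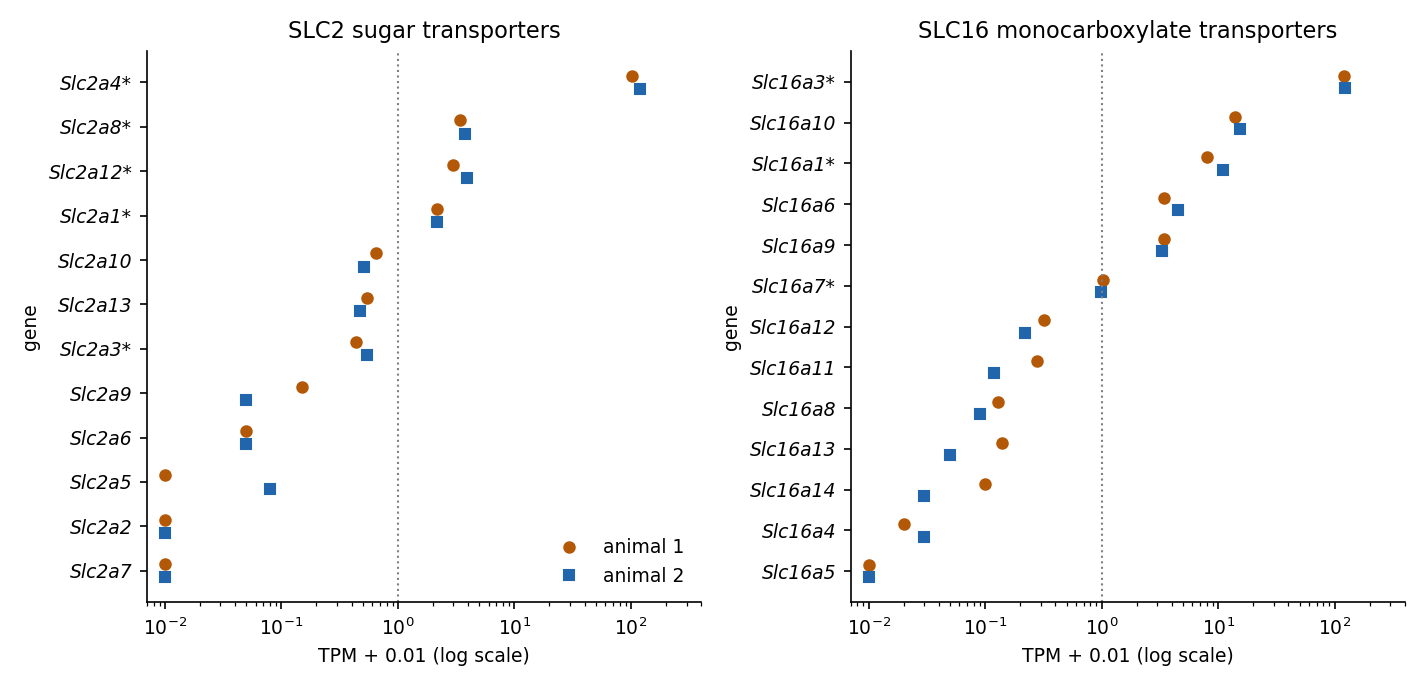
Level of the 12 SLC2 genes (left panel) and 13 SLC16 genes (right panel) as TPM plus 0.01 on a log scale, with a circle for animal 1 and a square for animal 2; asterisks mark the genes among the 10 and dotted lines mark 1 TPM. Slc2a4 and Slc16a3 stand apart at the top of their families, and 2 SLC2 genes and 1 SLC16 gene are at 0 TPM in both animals.

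Slc16a3 (chr11:120948480-120960868, plus strand) had 119.51 TPM in animal 1 and 122.45 TPM in animal 2, with a mean of 121 ± 2.08 TPM (SD, n = 2). Slc16a1 (chr3:104638668-104658462, plus strand) had 8.00 TPM in animal 1 and 11.05 TPM in animal 2. Slc16a7 (chr10:125219270-125389465, minus strand), which encodes the high-affinity carrier MCT2, had 1.02 TPM in animal 1 and 0.98 TPM in animal 2. The MCT4 transcript was thus the main one of the lactate carriers in both animals, and its range did not touch those of the others.

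Among the 4 genes of proton-linked lactate carriers (Slc16a1, Slc16a3, Slc16a7 and Slc16a8), Slc16a3 held 92.9% of the TPM in animal 1 and 91.0% in animal 2, with a mean of 91.9% ± 1.34 (SD, n = 2). Slc16a1 held 6.22% in animal 1 and 8.21% in animal 2. Slc16a8, the MCT3 gene known from retinal pigment epithelium, had 6 counts in animal 1 and 4 counts in animal 2. The level ratio of Slc16a3 to Slc16a1 was 14.9-fold in animal 1 and 11.1-fold in animal 2, a log2 ratio of 3.69 ± 0.305 (SD, n = 2).

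Of the 13 SLC16 genes examined, 5 were detected, against 45.3% of nuclear protein-coding genes. The highest outside the 10 was Slc16a10, the aromatic amino acid carrier TAT1, at 13.84 TPM in animal 1 and 15.53 TPM in animal 2, above Slc16a1 in both. Slc16a6 had 3.45 TPM in animal 1 and 4.51 TPM in animal 2. Slc16a9 had 3.39 TPM in animal 1 and 3.32 TPM in animal 2.

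Bsg (chr10:79704491-79711969, plus strand), an immunoglobulin-domain glycoprotein, had the highest level of the 10, at 201.16 TPM in animal 1 and 200.51 TPM in animal 2. Its level exceeded the summed level of the 4 lactate carriers 1.56-fold in animal 1 and 1.49-fold in animal 2. On the log2 scale this ratio was 0.61 ± 0.0491 (SD, n = 2). Its relatives embigin (Emb), the usual partner of MCT2, and neuroplastin (Nptn) were lower. Nptn had 34.42 TPM in animal 1 and 36.32 TPM in animal 2, and Emb had 3.97 TPM in animal 1 and 3.95 TPM in animal 2.

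The annotation holds 6 transcripts of Bsg, 3 with a complete coding sequence. Bsg-205 (273 codons) is the form known from most tissues as basigin-2, and Bsg-201 (389 codons) is the longer form known as basigin-1, described from the retina. They differ by 1 exon of 348 bases, exon 2 of Bsg-201 at chr10:79708697-79709044, plus strand, which adds 116 codons of an extra immunoglobulin-like domain. The first 260 of its bases are shown because the deposited quantifications disagree about how often the exon was used. Capitals mark the exon and lower case the 20 bases before it in the GENCODE M21 transcript sequence (mm10).
Bsg-201 exon 2: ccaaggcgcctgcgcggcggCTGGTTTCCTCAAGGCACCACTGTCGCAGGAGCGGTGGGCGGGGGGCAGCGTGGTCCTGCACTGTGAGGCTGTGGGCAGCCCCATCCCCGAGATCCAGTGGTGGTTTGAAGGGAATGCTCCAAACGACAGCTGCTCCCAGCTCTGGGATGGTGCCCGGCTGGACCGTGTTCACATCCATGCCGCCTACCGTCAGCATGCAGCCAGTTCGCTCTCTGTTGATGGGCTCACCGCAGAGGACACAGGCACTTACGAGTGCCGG

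In the first quantification, with the columns RSEM writes, Bsg-205 held 82.1% of Bsg TPM in animal 1 and 82.3% in animal 2. Bsg-201 held 0.61% in animal 1 and 0.74% in animal 2. In the second quantification, with the columns kallisto writes, Bsg-205 held 35.7% in animal 1 and 55.3% in animal 2. Bsg-201 held 31.8% in animal 1 and 35.3% in animal 2 there. The exon shown above was thus in 0.734% and 0.888% of the Bsg transcripts that span its position in animals 1 and 2 by the first quantification, and in 47.2% and 38.7% by the second. In counts, Bsg-201 was given 50.3 expected counts in animal 1 and 64.6 in animal 2, against 2757 and 3129 estimated counts in the second table.

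The short form Bsg-202 (218 codons), whose transcript begins downstream of that exon, differed between the animals in the second quantification only. It held 16.9% in animal 1 and 16.3% in animal 2 by the first, and 32.0% in animal 1 and 8.81% in animal 2 by the second. The level of Bsg as a gene was less affected. After both tables were rescaled to nuclear protein-coding genes, the second gave a Bsg level 0.93-fold that of the first. The reason for the difference in transcript shares was not tested, and the tables give no single value for the share of basigin-1 in this muscle.

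**Figure D3:**
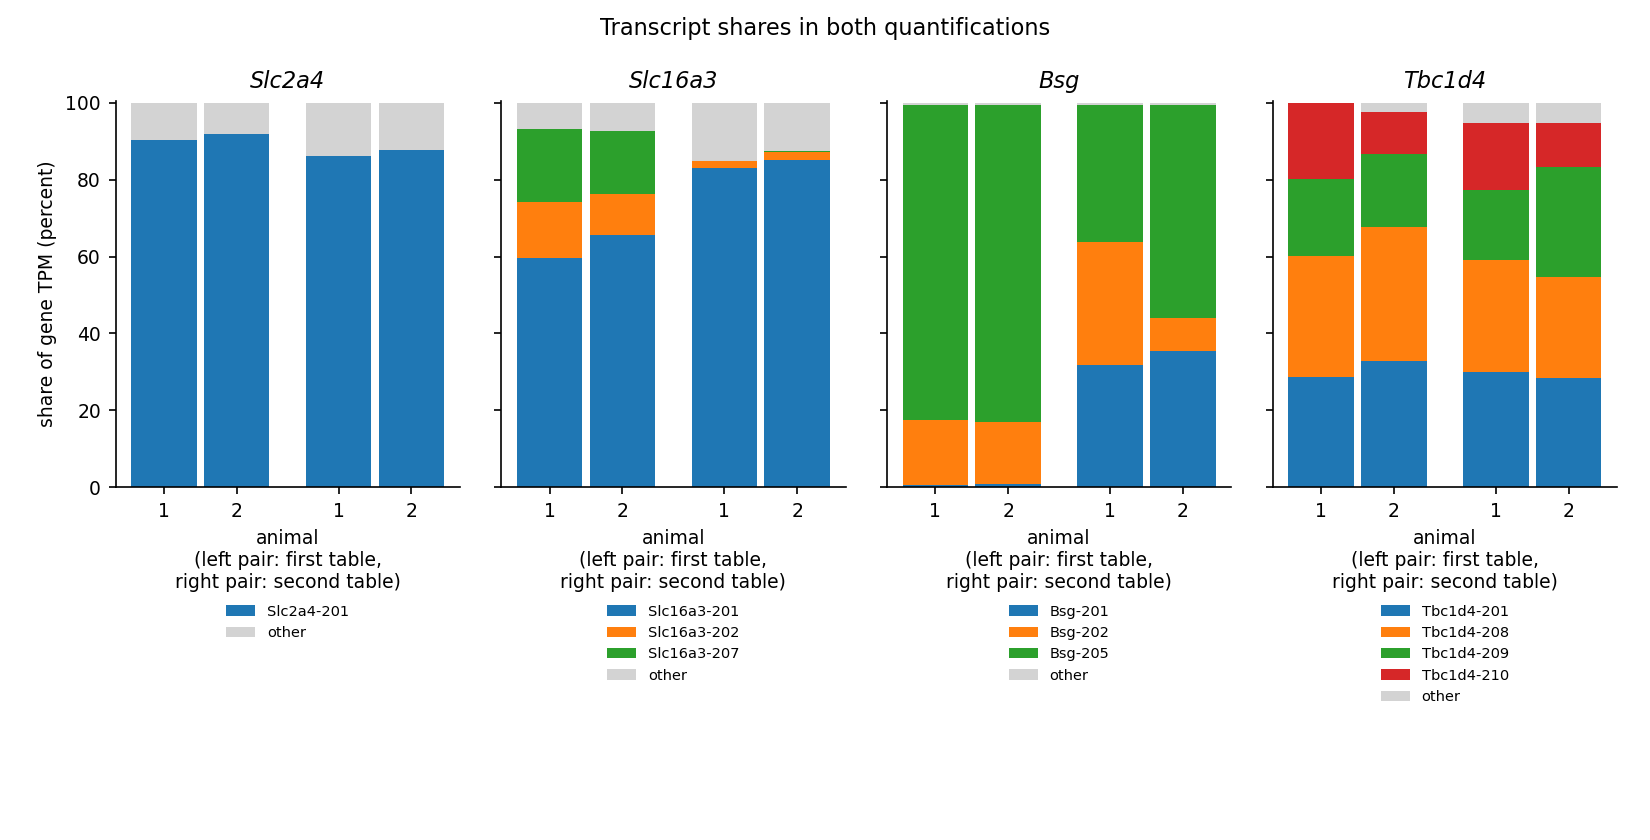
Share of a gene's TPM held by each transcript, in percent, for Slc2a4, Slc16a3, Bsg and Tbc1d4; each panel has animals 1 and 2 in the first quantification (left pair) and in the second (right pair), and transcripts below 10% everywhere are summed as other. Bsg-201 is close to 0 in the left pair and 31.8% and 35.3% in the right pair, while Slc2a4-201 stays above 80% throughout.

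Slc2a4 and Slc16a3 were assigned mainly to 1 transcript each in both quantifications. Slc2a4-201 (509 codons) held 90.3% of Slc2a4 TPM in animal 1 and 91.7% in animal 2 by the first, and 86.1% in animal 1 and 87.8% in animal 2 by the second. The other complete coding form, Slc2a4-203 (480 codons), ends at another place and held 1.89% in animal 1 and 1.87% in animal 2. The stretch that tells them apart is the coding part of exon 11 of Slc2a4-201 (exon at chr11:69942543-69943572, minus strand), 201 bases that encode the carboxy-terminal end of GLUT4. It is shown with the exon's coding bases in capitals after the last 20 bases of exon 10, from the same transcript sequences.
Slc2a4-201 exon 11, coding part: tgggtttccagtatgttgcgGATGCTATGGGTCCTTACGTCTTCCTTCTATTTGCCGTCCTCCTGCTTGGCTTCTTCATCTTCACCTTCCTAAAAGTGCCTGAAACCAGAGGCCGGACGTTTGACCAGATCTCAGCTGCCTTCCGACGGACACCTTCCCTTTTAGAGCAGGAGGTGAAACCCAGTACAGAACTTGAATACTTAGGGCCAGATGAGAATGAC

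Slc16a3-201 held 59.5% of Slc16a3 TPM in animal 1 and 65.5% in animal 2 by the first quantification, and 82.9% in animal 1 and 85.0% in animal 2 by the second. The 3 complete coding transcripts of Slc16a3 share a single coding sequence of 470 codons, so these shares do not separate forms of the protein. Slc16a1 has 1 annotated transcript. The transcript with the largest share was the same in both animals and both quantifications for 7 of the 10 genes, all but Slc2a1, Slc16a7 and Tbc1d4.

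The transcript assignments of the low genes were less even. For Slc2a1, the single complete coding transcript held 55.6% of gene TPM in animal 1 and 84.8% in animal 2 by the first quantification, and 37.3% in animal 1 and 46.4% in animal 2 by the second. A transcript annotated for nonsense-mediated decay, a path that removes faulty messages, held 28.7% in animal 1 and 15.2% in animal 2 by the first, and 22.0% in animal 1 and 35.6% in animal 2 by the second. For Slc2a8, complete coding transcripts held 71.7% in animal 1 and 66.6% in animal 2 by the first quantification, and 74.8% and 70.3% by the second. Its nonsense-mediated decay transcripts held 5.47% in animal 1 and 8.56% in animal 2 by the first, and 19.6% and 24.7% by the second. With 151 to 197 counts for Slc2a1 and 163 to 181 for Slc2a8 in a library, few reads lie behind each of these shares. The leading transcript of Slc16a7 was Slc16a7-202 in animal 1 and Slc16a7-205 in animal 2 by the first quantification, but its 4 complete coding transcripts share 1 coding sequence. By the second, Slc16a7-204, whose annotated coding sequence is incomplete, led in animal 1 with 48.5% and held 37.2% in animal 2. Slc16a7-202 led in animal 2 there.

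Tbc1d4 (chr14:101442360-101609191, minus strand) had 8.22 TPM in animal 1 and 9.31 TPM in animal 2. Its paralog Tbc1d1, which is also phosphorylated by AMPK, had 15.96 TPM in animal 1 and 15.35 TPM in animal 2. Tbc1d4 was thus the lower of the pair in both animals, with a log2 ratio of Tbc1d4 to Tbc1d1 levels of -0.96 in animal 1 and -0.72 in animal 2.

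Some Tbc1d4 transcripts hold 1 or both of a pair of extra exons. Tbc1d4-210 (1306 codons) holds exon 11 (165 bases, chr14:101475077-101475241) and exon 12 (24 bases, chr14:101471428-101471451), both on the minus strand, and Tbc1d4-209 (1243 codons) lacks them. Together they add 63 codons, and the longer form is known from skeletal muscle and heart. Capitals mark each exon, with 20 bases of the neighbouring exons on each side in lower case, from the same transcript sequences.
Tbc1d4-210 exon 11: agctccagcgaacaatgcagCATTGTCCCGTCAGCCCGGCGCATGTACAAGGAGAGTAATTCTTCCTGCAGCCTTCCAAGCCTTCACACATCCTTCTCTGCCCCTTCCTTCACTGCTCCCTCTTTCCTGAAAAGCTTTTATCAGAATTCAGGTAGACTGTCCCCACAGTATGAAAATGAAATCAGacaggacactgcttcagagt
Tbc1d4-210 exon 12: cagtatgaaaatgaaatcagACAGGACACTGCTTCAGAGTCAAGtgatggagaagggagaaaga

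Transcripts with exon 11 made up 70.6% of the Tbc1d4 TPM that spans its position in animal 1 and 69.9% in animal 2 by the first quantification. By the second they made up 67.0% in animal 1 and 56.1% in animal 2. The exon-containing forms were therefore the larger part in both animals by both tables. Most of it was Tbc1d4-201, whose annotated coding sequence is incomplete. By the first quantification Tbc1d4-201 held 28.7% of gene TPM in animal 1 and 32.9% in animal 2. The complete long form Tbc1d4-210 held 19.7% in animal 1 and 11.1% in animal 2 by the first quantification. The complete short form Tbc1d4-209 held 20.2% in animal 1 and 18.9% in animal 2 there. By the second, Tbc1d4-210 held 17.5% in animal 1 and 11.3% in animal 2. Tbc1d4-209 held 18.0% in animal 1 and 28.8% in animal 2 by the second. The retained-intron transcript Tbc1d4-208, which covers the 3' part of the gene, held 31.4% in animal 1 and 34.8% in animal 2 by the first quantification. Part of the Tbc1d4 level was thus assigned to a transcript with no annotated protein. Its span (chr14:101442368-101463223) meets the 3' end of Tbc1d4-201 (at 101462974), and whether its reads come from a separate transcript was not tested.

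The animals were then compared as libraries, as log2 ratios of TMM-scaled counts (animal 1 over animal 2) with exact conditional binomial tests, two-sided, adjusted over 14754 genes by Benjamini-Hochberg. This test covers counting error in these libraries. It says nothing of a condition, since there is 1 group, and it is not a test over animals. Calls needed both a ratio beyond 2-fold and an adjusted p below 0.05. None of the 10 was called, against 1.75% of all genes tested. Under an adjusted p of 0.05 at any ratio, 1 of 10 was higher in animal 1, against 6.87% of genes, and 2 of 10 were lower in animal 1, against 7.96%. The median log2 ratio was -0.07 over the 10 and -0.01 over all genes tested.

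Slc16a1 had 999 counts in animal 1 and 1461 counts in animal 2. Its log2 ratio of scaled counts was -0.36 (95% interval -0.48 to -0.25), with an adjusted p of 2.27e-08 in the exact binomial test. Of 5965 nuclear protein-coding genes at a mean of 5 TPM or more, 5.11% had a ratio at least as far from 0. Slc16a1 was therefore lower in animal 1, by less than 2-fold.

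Slow-fibre markers were also lower in animal 1, for 8 of 8 genes under an adjusted p of 0.05 in the same exact test (7.96% of all genes tested were lower in animal 1 and 6.87% higher), with summed levels of 1175 TPM in animal 1 and 2173 TPM in animal 2. The slow heavy chain Myh7 had 229.52 TPM in animal 1 and 395.11 TPM in animal 2. Schwann cell markers summed to 56.9 TPM in animal 1 and 115 TPM in animal 2, with 5 of 8 lower in animal 1, and 2 of 3 perineurial markers tested were lower, with levels of all 4 listed summing to 1.94 TPM in animal 1 and 3.37 TPM in animal 2. Other lists ran the other way. Fibroblast markers had 5 of 7 higher in animal 1 and summed levels of 1765 TPM in animal 1 and 1168 TPM in animal 2, and fast-fibre markers had 9 of 10 higher and 1 lower. Of the erythroid markers tested, 3 of 5 were higher in animal 1, as were 2 of 6 adipocyte markers, while 2 of 8 endothelial markers were lower and macrophage markers had 1 of 8 in each direction. No marker of the slow-fibre, Schwann, perineurial and fibroblast lists was at 0 in both animals. Their part in the Slc16a1 difference was not tested.

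Slc2a4 had 6857 counts in animal 1 and 8520 counts in animal 2, a log2 ratio of -0.13 with an adjusted p of 1.08e-06 (exact binomial test). Bsg had 6719 counts in animal 1 and 7094 counts in animal 2, a log2 ratio of 0.11 with an adjusted p of 0.000224 in the same exact test. Both ratios lie well inside the spread between animals seen over other genes: 36.0% of the nuclear protein-coding genes were at least as far from 0 as Slc2a4, and 43.7% as Bsg. Bsg no longer passes the adjusted p when libraries are scaled by their totals (log2 ratio 0.014, adjusted p 0.781).

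The other 7 genes did not pass. Slc16a3, with 6680 counts in animal 1 and 7304 counts in animal 2, had a log2 ratio of 0.06 (95% interval 0.01 to 0.10; adjusted p 0.112, exact binomial test). Tbc1d4, with 1015 counts in animal 1 and 1158 counts in animal 2, had one of -0.0048 (95% interval -0.13 to 0.12). Slc16a7, with 67 counts in animal 1 and 107 counts in animal 2, had the ratio farthest from 0 among the 10, -0.49, but its interval ran from -0.95 to -0.04 and its adjusted p was 0.154. The remaining 4, with 36 to 448 counts in a library, had log2 ratios between -0.20 for Slc2a1 and 0.11 for Slc2a3.

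**Figure D4:**
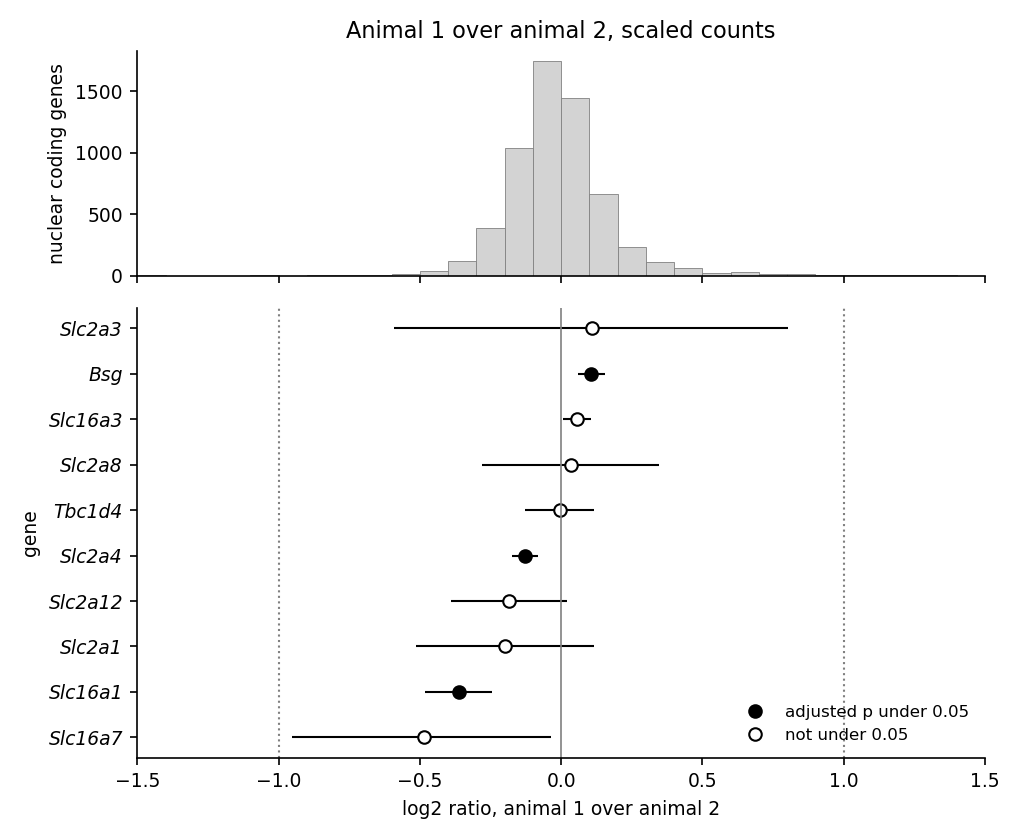
Upper panel: number of nuclear protein-coding genes at a mean of 5 TPM or more in bins of the log2 ratio of scaled counts, animal 1 over animal 2. Lower panel: the same ratio for each of the 10 genes with its 95% counting interval, filled where the adjusted p was under 0.05; dotted lines mark 2-fold, and Slc16a1 at -0.36, Slc2a4 at -0.13 and Bsg at 0.11 are the filled points.

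For low genes with several transcripts, the ratio of TPM and the ratio of counts can point in different directions, because the deposited gene length is set for each library by the transcripts assigned. Slc2a1 had 151 counts in animal 1 and 197 counts in animal 2 but nearly equal TPM, with a gene length of 2524.5 bases in animal 1 and 3105 bases in animal 2. Slc16a7 had a gene length of 2375 bases in animal 1 and 3675 bases in animal 2. Over nuclear protein-coding genes at a mean of 5 TPM or more the median log2 ratio of TPM was -0.12, against -0.02 for scaled counts. No direction between the animals is given for Slc2a1, Slc2a3, Slc2a8, Slc16a3 or Slc16a7, whose sign differs between these measures. Of these, Slc16a3 is not a low gene, and its gene length was nearly equal, at 2037 bases in animal 1 and 2051 bases in animal 2.

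GLUT4 reaches the membrane through vesicle traffic, and 16 of 17 traffic genes matched were detected, against 45.3% of nuclear protein-coding genes. Small GTPases led by level: Rab10, a target of TBC1D4 known from fat cells, had 83.43 TPM in animal 1 and 93.26 TPM in animal 2. Rhoq, which encodes TC10, had 63.05 TPM in animal 1 and 78.47 TPM in animal 2, and Rac1, needed for actin remodelling at GLUT4 delivery in muscle, had 65.38 TPM in animal 1 and 71.77 TPM in animal 2. Trarg1, a GLUT4 vesicle protein of fat cells, was the single gene of this list not detected, at 0.34 TPM in animal 1 and 0.33 TPM in animal 2. Between the animals, 3 of 17 were higher and 2 of 17 lower in animal 1 under an adjusted p of 0.05, against 6.87% and 7.96% of all genes tested, and none passed 2-fold.

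All 13 genes of the insulin signal that ends on TBC1D4 were detected, against 45.3% of nuclear protein-coding genes. Akt2, the AKT form most tied to glucose uptake, had 49.32 TPM in animal 1 and 57.61 TPM in animal 2. The lipid phosphatase gene Inppl1 had 28.49 TPM in animal 1 and 34.42 TPM in animal 2, and the receptor substrate Irs1 had 20.08 TPM in animal 1 and 27.06 TPM in animal 2. Irs2 was the 1 gene of this list called between the animals, with 9.35 TPM in animal 1 and 4.96 TPM in animal 2 and a log2 ratio of scaled counts of 1.01. In this list 2 of 13 were higher and 6 of 13 lower in animal 1 under an adjusted p of 0.05, against 6.87% and 7.96% of all genes tested, and Inppl1 and Irs1 were among the lower ones.

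**Figure D5:**
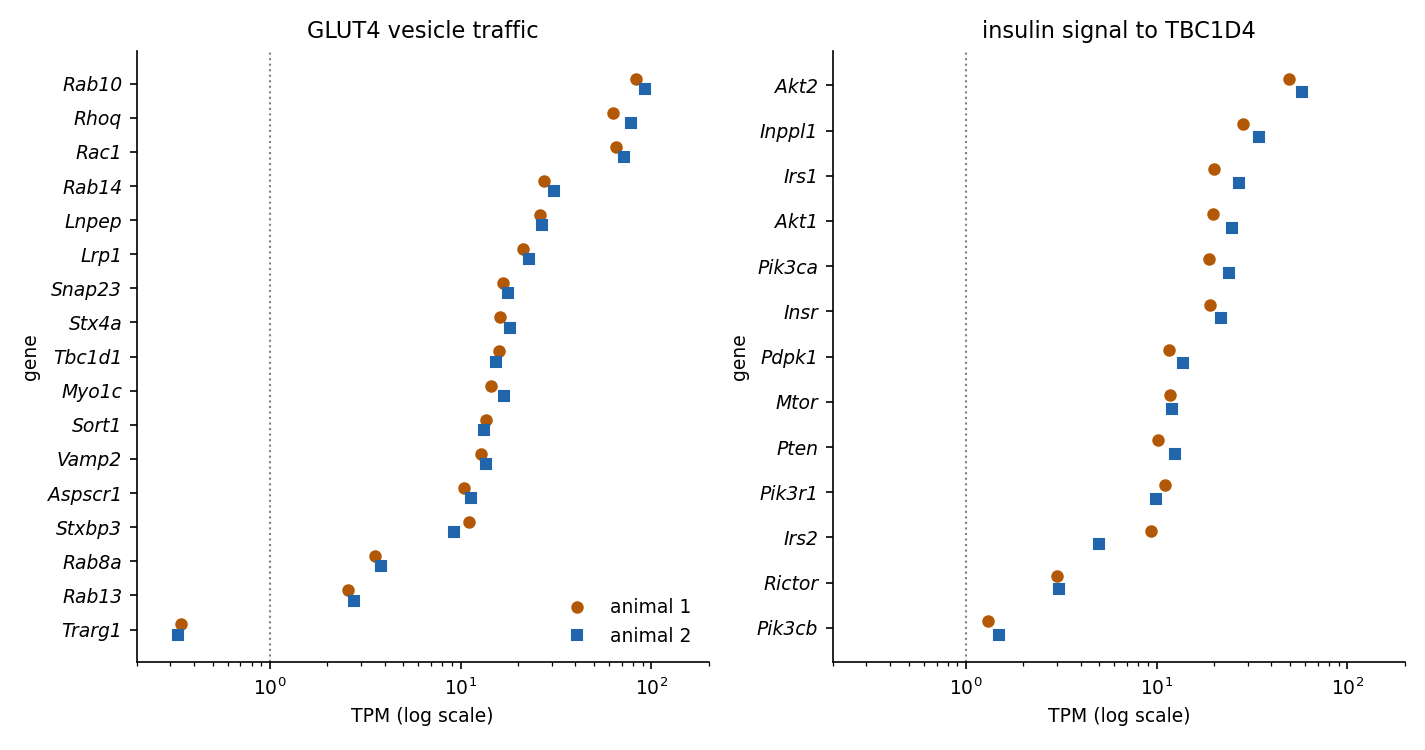
Level of genes of GLUT4 vesicle traffic (left panel) and of the insulin signal to TBC1D4 (right panel) as TPM on a log scale, with a circle for animal 1 and a square for animal 2; dotted lines mark 1 TPM. The points of the animals lie close together for most genes, and Irs2 has the widest gap, at 9.35 TPM in animal 1 and 4.96 TPM in animal 2.

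Once inside the fibre, glucose is trapped by hexokinases and its pyruvate is turned to lactate or taken into mitochondria. Of 10 genes of these steps, 8 were detected, against 45.3% of nuclear protein-coding genes. Ldha, the muscle form of lactate dehydrogenase, had 980.70 TPM in animal 1 and 1070.55 TPM in animal 2. The mitochondrial pyruvate carrier genes followed, Mpc1 with 133.40 TPM in animal 1 and 159.25 TPM in animal 2, and Mpc2 with 107.46 TPM in animal 1 and 131.79 TPM in animal 2. Of the 9 with enough counts to test, 1 was higher and 3 were lower in animal 1 under an adjusted p of 0.05, against 6.87% and 7.96% of all genes tested.

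Of 16 genes known to act on transporter genes or proteins, all were detected, against 45.3% of nuclear protein-coding genes. Txnip, whose protein holds back glucose uptake, had 253.26 TPM in animal 1 and 196.97 TPM in animal 2. The MEF2 genes, whose products bind the Slc2a4 promoter, followed, Mef2c with 128.84 TPM in animal 1 and 134.75 TPM in animal 2, and Mef2d with 58.72 TPM in animal 1 and 64.12 TPM in animal 2. In this list 4 of 16 were higher and 4 of 16 lower in animal 1 under an adjusted p of 0.05, against 6.87% and 7.96% of all genes tested.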

How the data were processed

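The authors' first gene and transcript tables give deposited expected counts, TPM and each transcript's percent of its gene, and per the file headers have the column names of RSEM. The authors' second transcript table gives estimated counts and TPM and, per the file headers, has the column names of kallisto. It was summed here to genes. The deposited descriptions name mm10 and GENCODE M21. The aligner, the tool versions and the strand setting were not given in the sources used here. The tables are on mm10, so the effect of CAST/EiJ alleles on the levels was not measured.

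The 10 genes, 8 pathway lists and 9 marker lists were chosen with earlier results of these data known. Pathway genes are named by rule as the top 3 of a list by mean TPM, plus Tbc1d1, Emb and genes called between libraries. Others named were chosen after their values were seen. 1 listed SLC16 gene is not reported here. Gene likeness across samples was not scored over 2 animals. Sequences were read from the M21 transcripts.

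Rounded expected counts were scaled by TMM (edgeR 4.0.16, R 4.3.3). The exact conditional binomial test was run on genes whose counts summed to at least 20, with a prior count of 0.5 for ratios and exact (Clopper-Pearson) 95% intervals. Without molecular identifiers, reads are not independent molecules, so intervals and floors hold counting error alone. The binomial test was tried on counts simulated with counting error alone for animal 1 against animal 2 over 14754 genes. It called 100 of 100 genes changed 3-fold, drawn from genes with summed counts of 100 or more, and 0 of 14554 unchanged. Added spread between animals was not simulated, so this gives no error rate for real differences between animals. DESeq2 1.42.0 size factors, library totals, spike-in counts, other filters, the second table, posterior mean TPM and each animal alone were the alternatives.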

Additional observations from a re-analysis of the deposited data

How the results depend on the processing

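Of the 10 genes, 8 were detected at 1 TPM in both animals, 9 at 0.5 TPM, 9 in the second quantification, 8 to 9 in either animal alone, 5 at 5 TPM, and all 10 at 1 TPM rescaled to nuclear protein-coding genes (a denominator added for detection after seeing the data). For 9 genes the leading transcript was the same in both animals in the first quantification, and for 7 in the second. Among complete coding transcripts only, an alternative chosen after seeing the data, it was the same for 9 genes in both animals and both quantifications. For Slc2a1, Slc2a3, Slc2a12 and Slc16a1 that agreement was fixed in advance, since each has 1 complete coding transcript. The Slc2a4 share of SLC2 TPM was 91.1% as deposited, 90.6% in the second quantification and 88.6% by posterior mean TPM. The log2 ratio of Slc2a4 to Slc2a1 was 5.68 as deposited, 5.31 in the second quantification and 5.41 by posterior mean TPM, and that of Bsg to the lactate carriers was 0.61 as deposited and 0.79 in the second quantification. These shifts exceeded the SD over the 2 animals, and their cause was not tested. No gene of the 10 was called between libraries under any scaling, count filter or table tried, and 3 passed the adjusted p except with library totals, where 4 did (Slc2a4, Slc2a12, Slc16a1 and Slc16a7).

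Signs against the scaled counts appeared in the ratio of TPM for Slc2a1 (0.013), Slc2a3 (-0.30), Slc2a8 (-0.15), Slc16a3 (-0.035) and Slc16a7 (0.058), with library totals for Slc2a8 (-0.058) and Slc16a3 (-0.037), and in the second table for Tbc1d4 (0.0081). The 36 to 448 counts of the 5 lowest genes limit their ratios. No paired analysis was possible because there is 1 group.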
